A study of Mus musculus with 120 samples.

Results

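The genes described here are 9 glycolytic enzymes and 1 glucose transporter: the transporter Slc2a1 (GLUT1), the hexokinase Hk1, the aldolase Aldoa, the isomerase Tpi1, the dehydrogenase Gapdh, the kinase Pgk1, the mutase Pgam1, the enolase Eno1, the pyruvate kinase Pkm and the lactate dehydrogenase Ldha. They were chosen by gene symbol, and 10 of 10 were found among the 23481 symbols counted in mouse bone-marrow-derived macrophages. The cells came from the marrow of wild-type male C57BL/6 mice aged 12 weeks and, in every group, had been transduced with a virus library of transcription factor reporters before plating in wells. Gene expression was measured by 3′ digital counting in 120 libraries of 45 groups. Controls had 12 libraries at each time label (T0, T1, T4). Each of 7 halofuginone doses (2.4, 9.7, 39, 156, 625, 2500 and 10000 nM) had a pair of libraries per time, and a further pair with 2 mM proline. The series describes a pretreatment of 30 min ahead of lipopolysaccharide (LPS), and the labels a halofuginone dose curve of 4 hours in the presence or absence of LPS. No label says which libraries received LPS, gives the unit of the time labels, or says whether the controls had proline. The doses of 625 to 10000 nM are called high here (6 libraries per time and arm) and those of 39 and 156 nM middle (4 libraries).

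Glycolysis converts glucose to pyruvate in the cytosol. Slc2a1 carries glucose into the cell, hexokinases trap it as a sugar phosphate, aldolase and triosephosphate isomerase yield the triose phosphates, the enzymes from Gapdh to Pkm recover NADH and ATP, and Ldha reduces pyruvate to lactate. Macrophages activated by LPS are known for raised glucose uptake and lactate output, in which the hypoxia-inducible factor HIF-1 takes part. Halofuginone inhibits prolyl-tRNA synthetase in competition with proline and so triggers the amino acid starvation response.

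The promoters of 4 members are shown because these members moved in different directions in the comparisons below while each holds the core letters bound by HIF-1. The sequences are from RefSeq on GRCm38.p6 and run from 250 bases before to 50 bases after a transcript start, 5′ to 3′ on the gene's own strand. Capitals mark matches to ACGTG or GCGTG on either strand, so CACGT and CACGC are matches on the opposite strand, and longer capital runs join overlapping matches.
Slc2a1, chr4:119108495-119108794, plus strand: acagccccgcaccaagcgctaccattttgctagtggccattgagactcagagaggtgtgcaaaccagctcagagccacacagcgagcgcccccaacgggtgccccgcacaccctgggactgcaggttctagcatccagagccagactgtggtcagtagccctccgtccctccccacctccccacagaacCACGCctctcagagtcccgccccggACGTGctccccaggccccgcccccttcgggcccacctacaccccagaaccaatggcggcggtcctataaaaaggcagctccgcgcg
Aldoa, the second of 3 listed starts, chr7:126799205-126799504, minus strand: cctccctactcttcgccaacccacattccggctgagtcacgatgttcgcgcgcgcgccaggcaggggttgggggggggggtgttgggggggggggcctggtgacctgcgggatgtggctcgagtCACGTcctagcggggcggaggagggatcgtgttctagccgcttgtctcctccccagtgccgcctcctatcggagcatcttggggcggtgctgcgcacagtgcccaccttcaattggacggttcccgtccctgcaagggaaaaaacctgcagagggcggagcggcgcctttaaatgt
Pkm, the second of 2 listed starts, chr9:59656977-59657276, plus strand: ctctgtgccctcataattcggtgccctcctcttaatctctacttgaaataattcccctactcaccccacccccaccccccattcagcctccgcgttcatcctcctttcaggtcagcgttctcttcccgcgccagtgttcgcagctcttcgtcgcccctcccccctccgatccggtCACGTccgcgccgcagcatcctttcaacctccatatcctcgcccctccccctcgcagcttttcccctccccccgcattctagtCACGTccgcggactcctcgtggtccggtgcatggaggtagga
Ldha, the first of 2 listed starts, chr7:46845554-46845853, plus strand: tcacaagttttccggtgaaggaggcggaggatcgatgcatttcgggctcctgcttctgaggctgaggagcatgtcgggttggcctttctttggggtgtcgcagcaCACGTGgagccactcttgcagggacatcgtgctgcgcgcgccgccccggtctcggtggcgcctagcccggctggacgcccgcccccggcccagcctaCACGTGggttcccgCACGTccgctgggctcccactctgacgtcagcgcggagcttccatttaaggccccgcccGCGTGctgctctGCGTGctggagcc
The Ldha window held 7 matches, the windows of Slc2a1 and Pkm 2 each, and that of Aldoa 1. All 10 members were found in the promoter table, with 17 windows of 300 bases. Of these, 13 (76.5%, in 9 members) held a match, against 43.8% of 32851 promoter windows of the same length. Windows 2 and 3 of Aldoa overlap and hold the same match, and windows 2 and 3 of Eno1 overlap and hold the same matches. The member windows are therefore not all separate sequences. The first start of Aldoa, of Pkm and of Hk1 and the start of Tpi1 held none. The E-box CACGTG, which contains ACGTG, occurred in 1 member window (Ldha) and in 7.15% of all windows. The NF-kB site occurred in 1 member window (Pgk1) and in 5.56% of all windows. The amino acid response element TGATGNAA occurred in 0 member windows and in 3.97% of all windows. All motifs were read on both strands, and a match describes letters only.

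The libraries were shallow. Total counts ran from 20000 to 114061 per library with a median of 49515, the precursor ribosomal RNA Rn45s took 27.0% to 71.1% of them, and the 10 members together had 23 to 255 counts per library. Over all libraries Gapdh had 3210 counts, Pkm 2821, Ldha 2173 and Aldoa 1879, while Pgk1, Pgam1, Eno1, Slc2a1, Tpi1 and Hk1 had between 244 and 758. Of 12 macrophage markers 11 symbols were present, with Csf1r counted in 120 libraries and Cd68 in 115, but Lyz2, a defining marker, had 18 counts in all. Il1b, an LPS-induced cytokine, differed between T1 and T0 controls by 6.89 (SE 0.20, edgeR adjusted p = 3.6e-36) on the log2 scale. Il1b was also higher at T0 with high halofuginone than in the T0 controls, by 4.26 (SE 0.43, edgeR adjusted p = 2.0e-13), and the part of this in the T0 results was not tested. Levels are given as CPM, counts scaled to a common library size with edgeR's TMM factors, and differences as log2 fold changes with their SE. A gene was tested where edgeR's filter found counts enough in the groups compared, and it was called where its adjusted p (Benjamini-Hochberg, over all genes of the comparison) was under 0.05. No label says that replicates came from separate cultures or animals, so the p-values measure the spread between libraries, which may be technical. In bulk RNA, fewer cells of a type and less RNA per cell cannot be told apart.

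In control cells 4 enzymes of the pathway were lower at T4 than at T0, while the glucose transporter, tested only without a filter on low counts, was higher. The summed level of the 10 members ran from 2662 to 3495 CPM (median 2876) in the 12 T0 controls and from 1950 to 2550 CPM (median 2286) in the 12 T4 controls. With TMM scaling every T4 control lay below every T0 control, a separation not checked under the other scalings named below. Of the 10 members, 5 had enough counts to be tested (Aldoa, Gapdh, Pgk1, Pkm and Ldha). From T0 to T4, 4 of these 5 fell and 0 rose, where 40% of the 708 genes tested were lower and 36.4% higher. Under median-of-ratios scaling, in DESeq2 and with the scaling over all 120 libraries 2 of the 5 were lower (Aldoa and Pkm), so the members' share is not set apart from the background. The median log2 fold change was -0.39 over the 5 and -0.14 over all genes tested. Under median-of-ratios scaling the latter was 0.05 and the calls over all genes split into 288 higher and 200 lower, in place of 258 and 283.

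Aldoa, which splits fructose 1,6-bisphosphate, had the largest difference of the 5 between T0 and T4. Its level ran from 208 to 524 CPM (median 356) in the 12 T0 controls, from 129.6 to 457 CPM (median 349) at T1 and from 103 to 420 CPM (median 160) at T4. The ranges overlap, with 10 of 12 T4 controls under the T0 mean. Between T0 and T4 Aldoa fell by 0.88 (SE 0.20, edgeR adjusted p = 0.00012). Between T1 and T4 it fell by 0.75 (SE 0.20, edgeR adjusted p = 0.0012), where 2 of 5 members fell and 0 rose against 31.2% and 30.9% of genes tested. Both calls held in the 6 alternative settings and whichever of the 36 control libraries was left out.

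Pkm makes pyruvate and ATP from phosphoenolpyruvate. Its level ran from 509 to 1017 CPM (median 738) at T0, from 455 to 904 CPM (median 615) at T1 and from 381 to 703 CPM (median 492) at T4. The ranges overlap, though 12 of 12 T4 controls lay under the T0 mean. Between T0 and T4 Pkm fell by 0.50 (SE 0.13, edgeR adjusted p = 0.00046), and between T1 and T4 it fell by 0.33 (SE 0.13, edgeR adjusted p = 0.022). The first call was lost without the filter on low counts (-0.20, edgeR adjusted p = 0.4). The second was lost without control replicate 5 (-0.28, edgeR adjusted p = 0.058) at T1, under median-of-ratios scaling (-0.20, edgeR adjusted p = 0.19), without the filter on low counts (-0.19, edgeR adjusted p = 0.46), in DESeq2 (-0.20, adjusted p = 0.2) and with the scaling over all 120 libraries (-0.23, edgeR adjusted p = 0.12). The isoforms Pkm1 and Pkm2 share 1 symbol and are not told apart.

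Gapdh makes the first NADH of the pathway, and it was lower at T1. It ran from 609 to 957 CPM (median 729) at T0, from 311 to 645 CPM (median 537) at T1 and from 425 to 836 CPM (median 563) at T4. All 12 T1 controls lay under the T0 mean, although the ranges overlap. At T4 this held for 11 of 12. Between T0 and T1 Gapdh fell by 0.53 (SE 0.12, edgeR adjusted p = 0.00029), and between T0 and T4 it fell by 0.36 (SE 0.11, edgeR adjusted p = 0.0043). The first call was lost without the filter on low counts (-0.36, edgeR adjusted p = 0.33), and the second under median-of-ratios scaling (-0.17, edgeR adjusted p = 0.19), without the filter on low counts (-0.05, edgeR adjusted p = 0.9), in DESeq2 (-0.16, adjusted p = 0.19) and with the scaling over all 120 libraries (-0.19, edgeR adjusted p = 0.14).

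Ldha, the enzyme of lactate formation, ran from 245 to 832 CPM (median 484) at T0, from 164 to 636 CPM (median 335) at T1 and from 267 to 545 CPM (median 357) at T4. The ranges overlap, with 10 of 12 T1 controls and 11 of 12 T4 controls under the T0 mean. At T1 it fell by 0.45 (SE 0.17, edgeR adjusted p = 0.045), and at T4 it fell by 0.39 (SE 0.17, edgeR adjusted p = 0.03). At T1, Gapdh and Ldha were the 2 of 5 members called lower and 0 were higher, against 7.91% and 18.2% of genes tested. The call of Ldha at T1 was lost under median-of-ratios scaling (-0.39, edgeR adjusted p = 0.095), without the filter on low counts (-0.29, edgeR adjusted p = 0.53), in DESeq2 (-0.39, adjusted p = 0.085) and with the scaling over all 120 libraries (-0.38, edgeR adjusted p = 0.11), and that at T4 under median-of-ratios scaling (-0.20, edgeR adjusted p = 0.27), without the filter on low counts (-0.08, edgeR adjusted p = 0.8), in DESeq2 (-0.20, adjusted p = 0.27) and with the scaling over all 120 libraries (-0.23, edgeR adjusted p = 0.21). The call at T4 was also lost without T0 control replicate 2 (-0.31, edgeR adjusted p = 0.088), T0 control replicate 9 (-0.36, edgeR adjusted p = 0.0502), T4 control replicate 1 (-0.35, edgeR adjusted p = 0.056) or T4 control replicate 5 (-0.35, edgeR adjusted p = 0.054), and that at T1 in 15 of 36 such refits, with values of -0.45 to -0.37 in those 15.

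Slc2a1 had too few counts to be tested in the controls with the filter on low counts. Its level in the 12 T0 controls ran from 0 to 66.3 CPM (median 32.0), with 20 counts in all and 3 libraries at 0, and in the 12 T4 controls from 68.3 to 174 CPM (median 91.8), with 105 counts. The T4 range lies wholly above the T0 range. The ratio of the mean levels was 1.84 on the log2 scale. In the fit without a filter on low counts Slc2a1 rose between T0 and T4, by 2.05 (SE 0.40, edgeR adjusted p = 5.8e-06), and between T1 and T4, by 1.47 (SE 0.37, edgeR adjusted p = 0.0013).

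The other members did not pass in the controls. Hk1, which phosphorylates glucose at its entry to the pathway, ran from 0 to 79.5 CPM (median 41.2) at T0 and from 14.3 to 130 CPM (median 37.5) at T4, a difference of 0.72 (SE 0.45, edgeR adjusted p = 0.29) without a filter. Pgk1, the first step that yields ATP, was at 166 ± 53.5 CPM (SD, n = 12) at T0 and at 185 ± 53.2 CPM (SD, n = 12) at T4, a difference of 0.18 (SE 0.22, edgeR adjusted p = 0.45). Pgam1, which moves the phosphate of phosphoglycerate, was at 158 ± 72.0 CPM (SD, n = 12) at T0 and at 92.1 ± 35.5 CPM (SD, n = 12) at T4. All 12 T4 controls lay under its T0 mean, but the difference without a filter was -0.46 (SE 0.29, edgeR adjusted p = 0.29). Eno1 and Tpi1 differed between T4 and T0 by 0.03 (SE 0.31, edgeR adjusted p = 0.99) and 0.00 (SE 0.34, edgeR adjusted p = 1) without a filter.

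**Figure D1:**
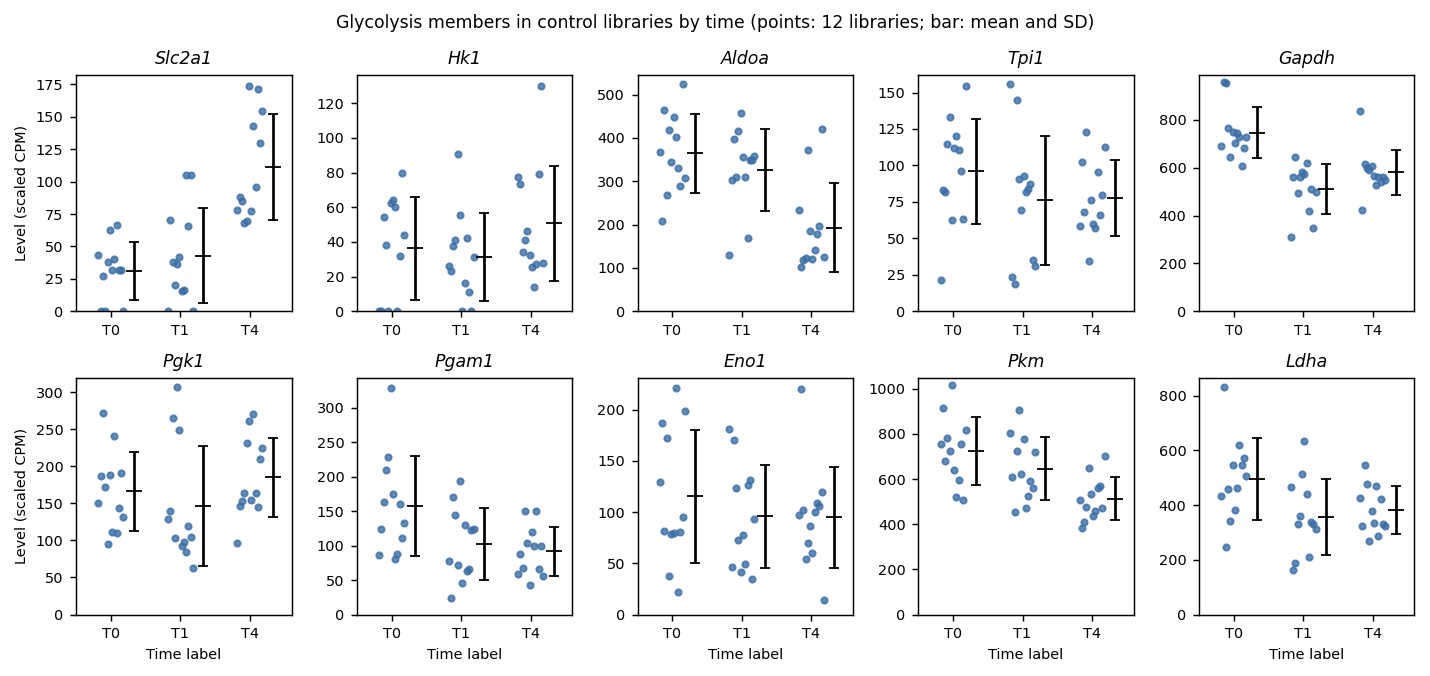
Level of each member (TMM-scaled CPM, y axis from 0, its own scale per panel) in the control libraries at T0, T1 and T4, with 12 points per time and the mean and SD beside them. Slc2a1 at T4 sits from 68.3 to 174 CPM, above all T0 controls, while Aldoa, Pkm and Gapdh have lower means at T4 than at T0.

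The hexokinase Hk2 and the hexose transporter Slc2a6, both outside the members, rose in the controls. Of 20 other glycolytic genes, Hk2 alone was tested, the hexokinase isoform known to be induced in activated macrophages. It rose by 1.14 (SE 0.30, edgeR adjusted p = 0.00072) from T0 to T4, from 109.9 ± 99.2 CPM (SD, n = 12) to 227 ± 65.1 CPM (SD, n = 12). Of 9 other hexose and lactate transport genes, Slc2a6 alone was tested, a hexose transporter of lysosomal membranes, and it rose by 3.34 (SE 0.32, edgeR adjusted p = 5.9e-14), from 34.3 ± 17.3 CPM (SD, n = 12) to 361 ± 104 CPM (SD, n = 12). Of the 12 genes of the pyruvate dehydrogenase list, the 7 of the pentose phosphate list and the 19 of the hypoxia list, 0 had counts enough to be tested there.

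At high halofuginone Pkm was lower than in the controls at T1 and T4, and Aldoa was higher at T4. At T4, 8 members were tested (Tpi1 and Eno1 were not), of which 1 fell (Pkm) and 2 were called higher (Aldoa and Hk1), against 35.5% of 1315 genes lower and 19.1% higher. At T1, 2 of 5 fell (Pkm and Pgk1) and 0 rose, against 23.3% and 11.3% of 1066 genes. At T0, 2 of 7 fell (Pgk1 and Eno1) and 0 rose, against 23.5% and 15% of 1130 genes. On 5 to 8 genes these shares cannot be set apart from the background. With the replicate number as a block in the fit, only Eno1 at T0 and Pkm at T1 and T4 stayed called. The labels do not say that these numbers pair libraries. Only 2 of the 12 controls of a time share a number with treated libraries. Each other control takes up its own block term and adds nothing to the difference. A call lost with the block therefore cannot be told apart from this loss of controls. The median log2 fold change of the members tested was -0.43 at T0, -0.04 at T1 and -0.20 at T4, beside -0.19, -0.21 and -0.23 over all genes tested.

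Pkm at T4 ran from 381 to 703 CPM (median 492) in the 12 controls. In the 6 high dose libraries it was 197 and 29.7 CPM at 625 nM, 360.2 and 213 CPM at 2500 nM, and 303 and 46.6 CPM at 10000 nM. Every high dose library lay under every control, on 31 counts in all. Pkm fell by 1.48 (SE 0.33, edgeR adjusted p = 0.00017), and over 9 alternative settings the difference ran from -1.91 to -1.28 with a highest adjusted p of 0.036. At T1 Pkm was 348 and 423 CPM at 625 nM, 478 and 67.0 CPM at 2500 nM, and 189 and 229 CPM at 10000 nM, against 455 to 904 CPM (median 615) in the controls. There 5 of 6 lay below all controls and the sixth within their range, and Pkm fell by 1.14 (SE 0.27, edgeR adjusted p = 0.0005). The call held in each of 9 settings, from -1.76 to -0.93, and the value was -1.83 without replicate 1 at 2500 nM. At T0 the 6 libraries ran from 421 to 624 CPM (median 538), a difference of -0.43 (SE 0.22, edgeR adjusted p = 0.11).

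The change of this difference with time was tested directly. The log2 fold change of Pkm at T4 less that at T0 was -1.32 (SE 0.37, edgeR adjusted p = 0.0073), and Pkm was the 1 of 8 members called, against 16.2% of 1468 genes that changed the same way and 17.6% that changed at all. Without the filter on low counts it was -1.28 (edgeR adjusted p = 0.1), and it was -2.11 without replicate 1 at 10000 nM and -1.98 without replicate 1 at 625 nM with halofuginone at T4. Over all genes tested the T4 less T0 values had a median of -0.46, with 20 called higher and 238 lower. For T1 less T0, 0 of 6 members passed in edgeR and 0 in DESeq2, against 6.09% of genes, with 1 at an unadjusted p under 0.05 (Pkm, -0.80).

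Aldoa moved the other way at T4. Its 12 controls ran from 103 to 420 CPM (median 160), and the 6 high dose libraries were 354 and 505 CPM at 625 nM, 400.3 and 319 CPM at 2500 nM, and 606 and 233 CPM at 10000 nM. All 6 lay above the control mean, and the ranges overlap. Aldoa rose by 1.07 (SE 0.31, edgeR adjusted p = 0.003), a call lost without replicate 1 at 10000 nM (0.76, edgeR adjusted p = 0.11), with the scaling over all 120 libraries (0.68, edgeR adjusted p = 0.063) and without the filter (0.62, edgeR adjusted p = 0.28). At T0 and T1 its differences of 0.38 (SE 0.23, edgeR adjusted p = 0.19) and 0.37 (SE 0.30, edgeR adjusted p = 0.35) did not pass. The mean with high halofuginone was 403 ± 134 CPM (SD, n = 6) at T4 and 482 ± 132 CPM (SD, n = 6) at T0. In the T0 controls it was 364 ± 90.9 CPM (SD, n = 12), and the T4 level was not tested against either T0 group. The retrogene copies Aldoart1 and Aldoart2 held 29 and 79 counts beside the 1879 of Aldoa, and reads could have been split among them.

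Hk1 at T4 was called higher, but the sign of its fitted difference depended on 1 library. Its 6 high dose libraries were 354 and 0 CPM at 625 nM, 240.2 and 319 CPM at 2500 nM, and 110.2 and 186 CPM at 10000 nM, against 14.3 to 130 CPM (median 37.5) in the 12 controls. Of the 6, 4 lay above all controls and 1 was at 0. The difference was 1.83 (SE 0.53, edgeR adjusted p = 0.0027), but -0.20 (edgeR adjusted p = 0.74) without replicate 1 at 625 nM, which leaves that dose with the library at 0. Without the filter on low counts it was 1.37 (edgeR adjusted p = 0.063).

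Pgk1 was low at T0 and T1 with halofuginone alone. At T0 its controls ran from 95.1 to 273 CPM (median 162), and the high dose libraries were 128 and 0 CPM at 625 nM, 78.5 and 105 CPM at 2500 nM, and 0 and 41.6 CPM at 10000 nM. All 6 lay under the control mean, and the ranges overlap. Pgk1 fell by 1.71 (SE 0.54, edgeR adjusted p = 0.0088), a call lost without replicate 2 at 625 nM (-1.31, edgeR adjusted p = 0.059) and without the 10000 nM dose (-1.18, edgeR adjusted p = 0.1). The value was -3.16 without replicate 1 at 625 nM and -2.75 without replicate 2 at 10000 nM. At T1 the 6 libraries held 5 counts in all and both libraries at 10000 nM were at 0, so that the fitted difference of -2.59 (SE 0.82, edgeR adjusted p = 0.0094) depends on how a 0 is treated. The mean levels were 50.2 and 146 CPM, a log2 ratio of -1.54. The call at T1 was lost without replicate 2 at 10000 nM (-2.60, edgeR adjusted p = 0.063) and without the 10000 nM dose (-1.05, edgeR adjusted p = 0.27).

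At the middle doses Pgk1 was the member called at T0 and T1, and Aldoa that at T4. These calls were lost with the replicate number as a block in the fit, where 2 of the 12 controls inform the difference. At T4 median-of-ratios scaling, DESeq2 and leaving out structural RNA symbols each called 3 members (Aldoa higher, Ldha and Pkm lower), and the scaling over all 120 libraries 2 (Ldha and Pkm). With TMM scaling Pkm at the middle doses of T4 ran from 124 to 410.4 CPM (median 301) in 4 libraries, all under the control mean of 512 CPM, a difference of -0.85 (SE 0.37, edgeR adjusted p = 0.057). At T0 1 of 7 members was lower and 0 higher, against 14.7% and 13.7% of genes tested. At T1 these were 1 and 0 of 5, against 16.1% and 12.9%, and at T4 0 and 1 of 8, against 25.9% and 14.7%. Pgk1 at T0 was 48.3 and 55.1 CPM at 39 nM and 35.2 and 80.5 CPM at 156 nM, below all 12 controls. It fell by 1.51 (SE 0.53, edgeR adjusted p = 0.025), a call lost without the filter on low counts (-1.59, edgeR adjusted p = 0.19) and without any of replicate 1 at 156 nM (-1.31, edgeR adjusted p = 0.1), replicate 2 at 156 nM (-1.87, edgeR adjusted p = 0.054), replicate 1 at 39 nM (-1.47, edgeR adjusted p = 0.075) or replicate 2 at 39 nM (-1.56, edgeR adjusted p = 0.078). At T1 it was 74.7 and 115 CPM and 0 and 34.1 CPM at the same doses, of which 2 libraries lay within the range of the controls (62.4 to 307 CPM) and 2 below it. There Pgk1 fell by 1.74 (SE 0.68, edgeR adjusted p = 0.045). That call was lost without the filter on low counts (-2.14, edgeR adjusted p = 0.082), in DESeq2 (-2.03, adjusted p = 0.062) and with the doses of a tier as 1 group (-1.26, edgeR adjusted p = 0.11), and without any of replicate 1 at 156 nM (-1.32, edgeR adjusted p = 0.2), replicate 2 at 156 nM (-3.15, edgeR adjusted p = 0.062), replicate 1 at 39 nM (-1.60, edgeR adjusted p = 0.13), replicate 2 at 39 nM (-1.90, edgeR adjusted p = 0.062), control replicate 3 (-1.63, edgeR adjusted p = 0.065), control replicate 5 (-1.59, edgeR adjusted p = 0.073) or control replicate 6 (-1.64, edgeR adjusted p = 0.065).

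Aldoa at T4 was 324 and 513 CPM at 39 nM and 619.8 and 352 CPM at 156 nM, all 4 above the control mean of 193 CPM. It rose by 1.17 (SE 0.37, edgeR adjusted p = 0.0087), a call lost without replicate 1 at 156 nM (0.96, edgeR adjusted p = 0.096) or replicate 2 at 39 nM (0.99, edgeR adjusted p = 0.07), without the filter on low counts (0.75, edgeR adjusted p = 0.39), without libraries under 30000 counts (0.96, edgeR adjusted p = 0.095) and with the scaling over all 120 libraries (0.80, edgeR adjusted p = 0.073).

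Eno1, which forms phosphoenolpyruvate, ran from 22.1 to 221 CPM (median 88.6) in the T0 controls and from 0 to 93.5 CPM (median 38.8) in the high dose libraries, on 6 counts. All 6 lay under the control mean, and the ranges overlap. Eno1 fell by 1.78 (SE 0.65, edgeR adjusted p = 0.024), a call lost without replicate 1 at 2500 nM (-1.50, edgeR adjusted p = 0.078) or replicate 2 at 625 nM (-1.40, edgeR adjusted p = 0.1) and in DESeq2 (-1.82, adjusted p = 0.055). The value was -2.75 without replicate 2 at 2500 nM and -2.74 without replicate 1 at 625 nM. At T4 Eno1 was below the filter, with 6 counts in 6 libraries of which 4 were at 0, against 94.9 ± 49.3 CPM (SD, n = 12) in the controls. In the fit without a filter its T4 difference was -2.58 (SE 0.82, edgeR adjusted p = 0.025), beside a log2 ratio of the mean levels of -1.38. Tpi1, which interconverts the triose phosphates, never passed the filter. At T4 it was at 33.5 ± 39.7 CPM (SD, n = 6) with high halofuginone and at 77.8 ± 25.9 CPM (SD, n = 12) in the controls, a difference of -1.54 (SE 0.69, edgeR adjusted p = 0.18) without a filter.

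Gapdh, Ldha, Pgam1 and Slc2a1 did not pass with high halofuginone alone at the times tested. Gapdh at T4 was at 582 ± 94.4 CPM (SD, n = 12) in the controls and 593 ± 207 CPM (SD, n = 6) at the high doses. Its difference of 0.06 (SE 0.22, edgeR adjusted p = 0.83) was -0.12 under median-of-ratios scaling and -0.33 with the scaling over all libraries, so its direction is not set. Ldha at T4 was at 382 ± 86.2 CPM (SD, n = 12) in the controls and 262 ± 135 CPM (SD, n = 6) at the high doses. Its difference of -0.55 (SE 0.35, edgeR adjusted p = 0.18) became -0.94 (edgeR adjusted p = 0.018) with the scaling over all libraries. That scaling moves the median of all genes tested at T4 from -0.23 to -0.61 and splits the calls into 120 higher and 557 lower, in place of 251 and 467. Against these shifts Pkm stayed lower at T4, at -1.86 with the same scaling. Slc2a1 at T4 was at 78.4 ± 60.2 CPM (SD, n = 6) against 111 ± 40.5 CPM (SD, n = 12), a difference of -0.46 (SE 0.50, edgeR adjusted p = 0.45), and Pgam1 differed by 0.59 (SE 0.51, edgeR adjusted p = 0.34).

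**Figure D2:**
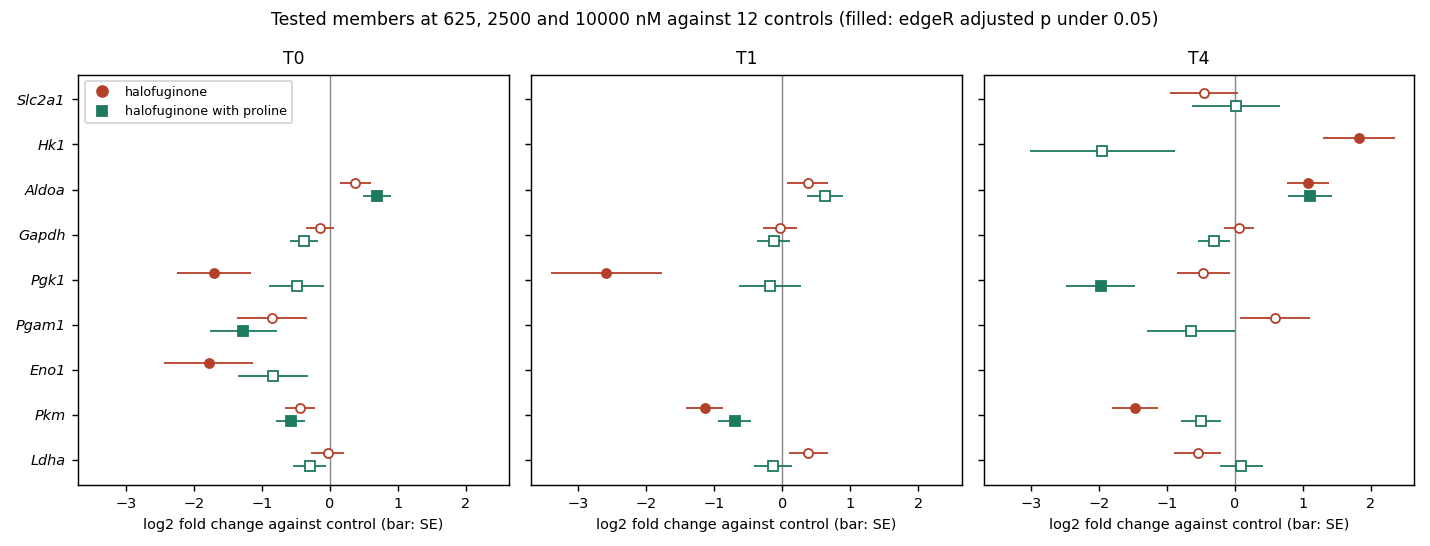
Log2 fold change against control (x axis) of each member with counts enough to be tested, for the 6 high dose libraries with halofuginone alone and the 6 with proline, 1 panel per time; bars are 1 SE and filled symbols have an edgeR adjusted p under 0.05. Pkm lies left of 0 and Aldoa right of 0 in each panel for both arms, with Pkm at -1.48 and Aldoa at 1.07 for halofuginone alone at T4.

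Library composition and the level of neutrophil markers moved with the drug, while macrophage markers went different ways. Rn45s took 47.7% of counts in the controls and 62.3% at high halofuginone at T0, 43.6% and 62.8% at T1, and 38.0% and 64.6% at T4 (means of 12 and 6 libraries). Without Rn45s the T4 libraries held 46530 and 16010 counts on average. Of 8 neutrophil markers 7 symbols were present, and their summed level ran from 218 to 509 CPM in the T0 controls and 0 to 148 CPM at the high doses, and from 117 to 460.2 CPM and 0 to 120.1 CPM at T4. S100a8, S100a9 and Ngp held most of these counts, Elane was at 0 and Mpo had 1 count. Of the macrophage markers, Csf1r averaged 501 CPM in the T4 controls and 511 CPM at the high doses of T4. There Cd68 (81.4 and 147 CPM) and Mrc1 had higher means, as had Mertk and Lyz2 on 39 and 18 counts in all libraries. Cd14 (689 and 119 CPM), Emr1, Itgam, Fcgr1, C1qa and C1qb had lower means. Over the 45 group means, which share their library preparation, the Pearson correlation with the Rn45s share was 0.60 for Aldoa, -0.51 for Eno1, -0.40 for Pgk1, -0.36 for Pkm and 0.04 for Gapdh. It was -0.38 for Tpi1, -0.38 for Pgam1, 0.30 for Slc2a1, -0.21 for Ldha and 0.05 for Hk1. The part of these shifts in the results was not tested.

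With proline beside high halofuginone, Aldoa was higher at T0 and T4 and Pkm lower at T0 and T1. These and the other calls with proline below were lost with the replicate number as a block in the fit. In that fit 2 of the 12 controls inform the difference. In the main fit 1 of 7 members rose and 2 fell at T0, against 19.2% and 24.3% of genes tested. Aldoa ran from 508 to 693 CPM (median 601) in these 6 libraries against 208 to 524 CPM (median 356) in the controls, with all 6 above the control mean. It rose by 0.70 (SE 0.21, edgeR adjusted p = 0.0052), and without the filter by 0.46 (edgeR adjusted p = 0.35). Pgam1 ran from 32.4 to 92.5 CPM (median 69.3) against 80.3 to 329 CPM (median 146), all 6 under the control mean, and fell by 1.27 (SE 0.50, edgeR adjusted p = 0.032). That call was lost without the filter on low counts (-1.49, edgeR adjusted p = 0.054) and without the 10000 nM dose (-1.29, edgeR adjusted p = 0.087), and without any of replicate 2 at 10000 nM (-1.11, edgeR adjusted p = 0.085), replicate 2 at 2500 nM (-1.12, edgeR adjusted p = 0.096), replicate 1 at 625 nM (-1.35, edgeR adjusted p = 0.055), replicate 2 at 625 nM (-1.22, edgeR adjusted p = 0.064) or control replicate 6 (-1.11, edgeR adjusted p = 0.068). Pkm ran from 227 to 792 CPM (median 504) against 509 to 1017 CPM (median 738), and fell by 0.57 (SE 0.21, edgeR adjusted p = 0.024), with 5 of 6 under the control mean. That call was lost without the 10000 nM dose (-0.37, edgeR adjusted p = 0.25), and without any of replicate 2 at 10000 nM (-0.44, edgeR adjusted p = 0.11), replicate 2 at 2500 nM (-0.46, edgeR adjusted p = 0.11) or replicate 1 at 625 nM (-0.48, edgeR adjusted p = 0.1).

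At T1 with proline, 1 of 5 members was lower (Pkm) and 0 were higher, against 23.5% and 15.3% of genes. Pkm was 437 and 467 CPM at 625 nM, 461 and 296 CPM at 2500 nM, and 435 and 276 CPM at 10000 nM, all 6 under the control mean of 646 CPM. It fell by 0.70 (SE 0.24, edgeR adjusted p = 0.015), a call lost without replicate 2 at 10000 nM (-0.61, edgeR adjusted p = 0.066) or replicate 2 at 2500 nM (-0.62, edgeR adjusted p = 0.057), and without the 10000 nM dose (-0.63, edgeR adjusted p = 0.084).

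At T4 with proline, 1 of 8 members rose and 1 fell, against 18.6% and 33.4% of genes. Aldoa was 374 and 589 CPM at 625 nM, 764 and 176 CPM at 2500 nM, and 474 and 243 CPM at 10000 nM, with 5 of 6 above the control mean. It rose by 1.101 (SE 0.32, edgeR adjusted p = 0.0028), a call lost without replicate 1 at 2500 nM (0.65, edgeR adjusted p = 0.15), without the filter on low counts (0.67, edgeR adjusted p = 0.26) and with the scaling over all 120 libraries (0.68, edgeR adjusted p = 0.071). Pgk1 was 112 and 0 CPM at 625 nM, 72.8 and 58.7 CPM at 2500 nM, and 0 and 40.5 CPM at 10000 nM, all 6 under the control mean of 185 CPM, and it fell by 1.98 (SE 0.51, edgeR adjusted p = 0.00089). The value was -3.64 without replicate 1 at 625 nM and -3.01 without replicate 2 at 10000 nM. Pkm spread widely, at 149.6 and 673 CPM at 625 nM, 291 and 440.4 CPM at 2500 nM, and 67.8 and 729.8 CPM at 10000 nM. Of these, 2 lay above the control mean and 4 below it, and the difference of -0.50 (SE 0.30, edgeR adjusted p = 0.15) did not pass. Eno1 and Tpi1, below the filter with 4 and 3 counts, were at -2.21 (SE 0.72, edgeR adjusted p = 0.037) and -3.71 (SE 1.06, edgeR adjusted p = 0.011) in the fit without it. Eno1 was at 0 in 3 of the 6 libraries and Tpi1 in 4, so these values depend on how a 0 is treated. The mean levels were 22.4 CPM for Eno1 and 18.1 CPM for Tpi1, against 94.9 and 77.8 CPM in the controls.

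The direct test of proline called none of the members. With against without proline at the high doses, edgeR called 0 of 7 members at T0, 0 of 5 at T1 and 0 of 8 at T4, against 0.177%, 0% and 0% of all genes. At the middle doses it called 0 of 7, 0 of 5 and 0 of 8, against 2.12%, 1.31% and 3.73%. DESeq2 called 0 in these 6 comparisons too. At an unadjusted p under 0.05 edgeR had 0, 1 and 3 members at the high doses and 1, 1 and 0 at the middle doses. At the high doses of T4 Pkm differed by 0.98 (SE 0.42, edgeR adjusted p = 0.34) and Hk1 by -3.78 (SE 1.00, edgeR adjusted p = 0.1). Pgk1 differed by 1.22 (SE 0.64, edgeR adjusted p = 0.52) at T0, 2.41 (SE 0.95, edgeR adjusted p = 0.35) at T1 and -1.51 (SE 0.64, edgeR adjusted p = 0.33) at T4. These differences did not pass the adjustment over all genes tested, which does not show that the arms were alike.

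**Figure D3:**
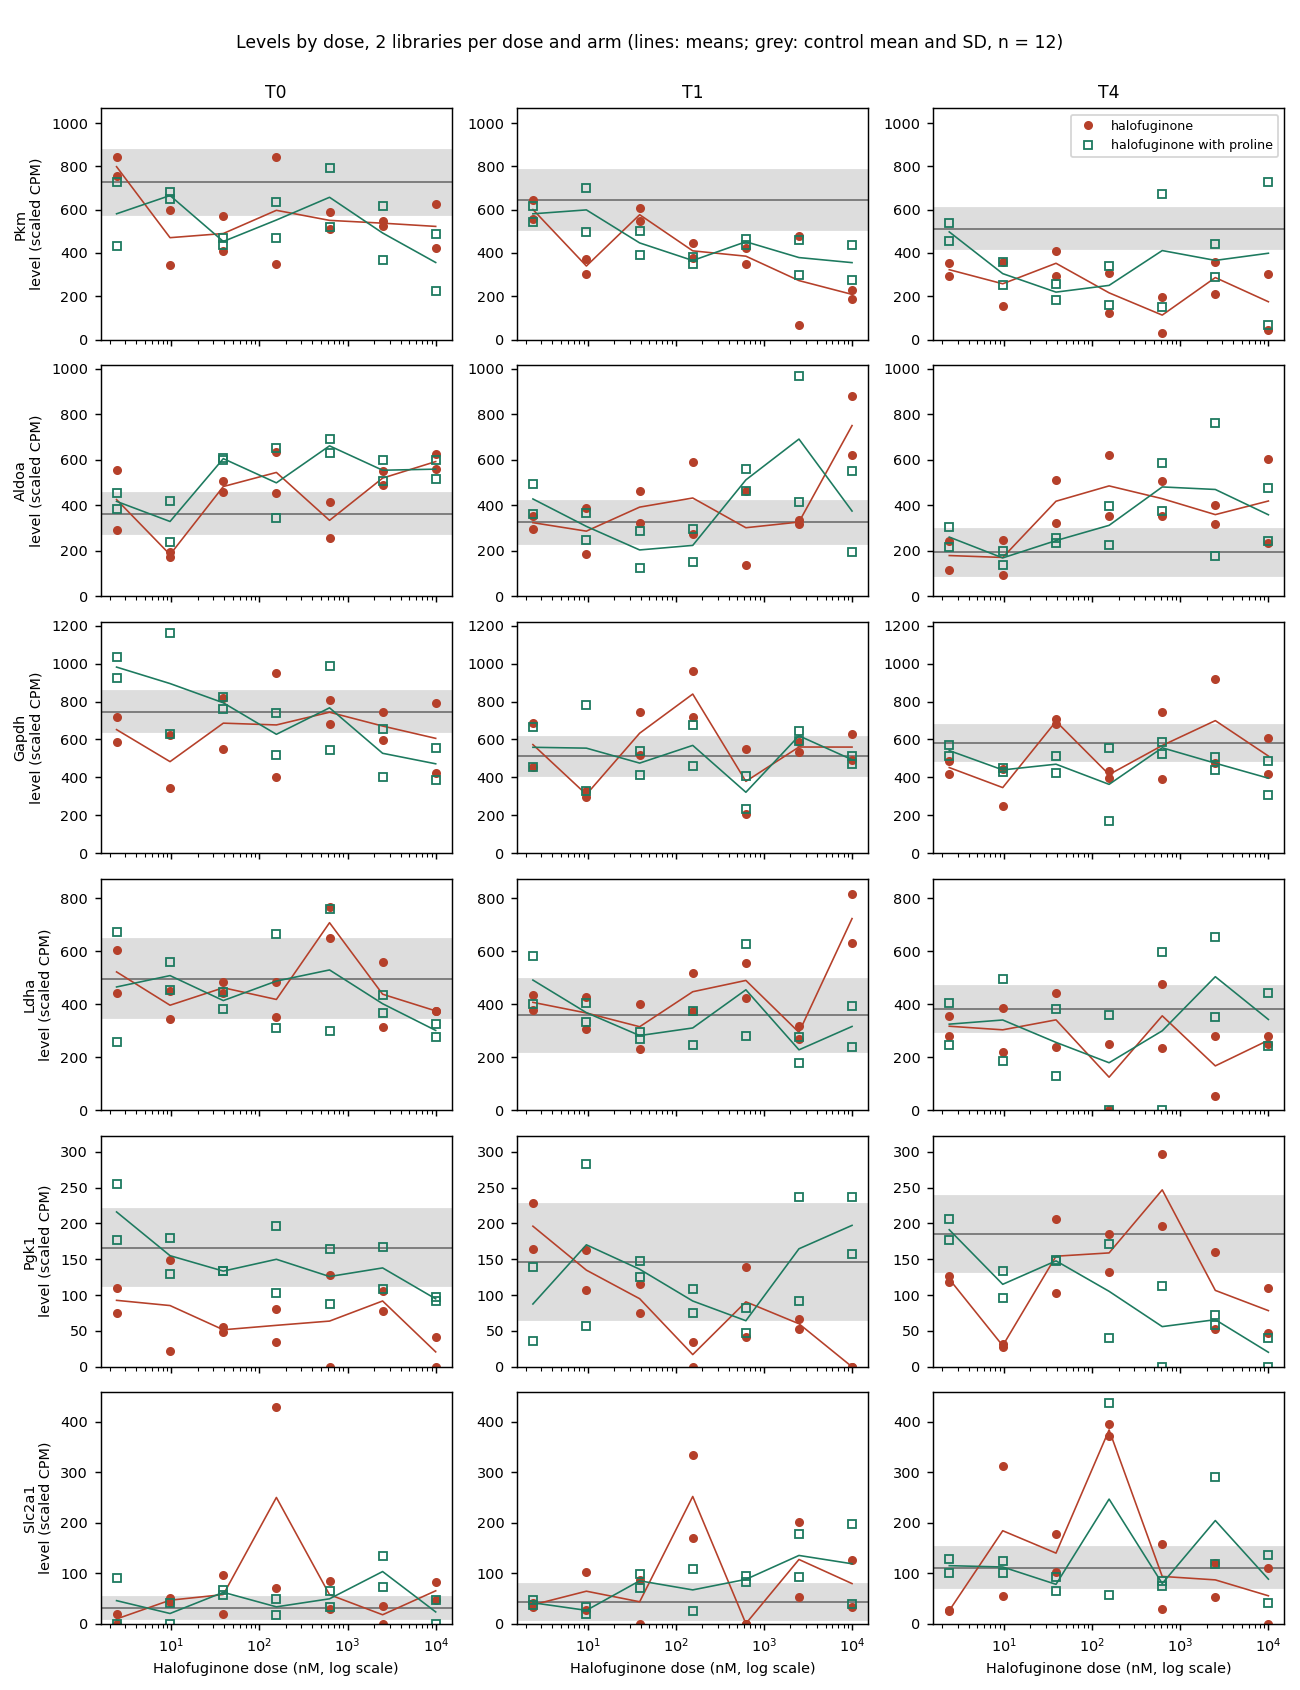
Level (TMM-scaled CPM) of members against halofuginone dose (nM, log axis) at T0, T1 and T4, with a pair of libraries per dose and arm, lines through their means and a band for the mean and SD of the 12 controls. Pkm at T4 lies under the control mean of 512 CPM at each dose of halofuginone alone, and the mean of Slc2a1 is highest at 156 nM in that arm.

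Across the 7 doses of halofuginone alone, 0 of 6 members at T0, 0 of 4 at T1 and 0 of 5 at T4 had a dose slope that passed in edgeR, against 26.5%, 17.8% and 38.2% of genes. DESeq2 called 0 as well. At an unadjusted p under 0.05 there were 0, 1 and 1. These were Aldoa, at 0.29 (SE 0.14, edgeR adjusted p = 0.12) log2 per 10-fold dose at T1 and 0.40 (SE 0.17, edgeR adjusted p = 0.055) at T4. Pgk1, below the filter in the T1 slope, had a slope there of -1.03 (SE 0.29, edgeR adjusted p = 0.03) in the fit without it.

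By dose, Aldoa at T4 averaged 179.6 CPM at 2.4 nM, 171 CPM at 9.7 nM, 418 CPM at 39 nM, 486 CPM at 156 nM, 429.7 CPM at 625 nM, 359.6 CPM at 2500 nM and 419.5 CPM at 10000 nM. The means at the 2 lowest doses lay under the control mean of 193 CPM and those from 39 nM upward above it. Pkm at T4 averaged 323 CPM at 2.4 nM, 258 CPM at 9.7 nM, 352 CPM at 39 nM, 216 CPM at 156 nM, 113 CPM at 625 nM, 286 CPM at 2500 nM and 175 CPM at 10000 nM. At 2.4 and 9.7 nM its 4 libraries ran from 156 to 359 CPM, below all 12 controls, a difference that was not tested. With proline at the middle doses of T4 Pkm ran from 159 to 342 CPM in 4 libraries, also below all 12 controls and also not tested.

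The mean of Slc2a1 was highest at 156 nM with halofuginone alone at each time, a dose singled out after its values were seen. The pair there was at 70.4 and 429.5 CPM at T0, 333 and 170.5 CPM at T1 and 372 and 396 CPM at T4. At T1 and T4 both lay above all controls of their time, and at T0 both lay above the highest control of 66.3 CPM. With proline the pair was at 49.2 and 17.2 CPM at T0, 108 and 25.1 CPM at T1 and 57.0 and 436 CPM at T4. Over both middle doses without proline the T4 difference from control was 1.05 (SE 0.48, edgeR adjusted p = 0.068), and at T0, without a filter, it was 1.76 (SE 0.67, edgeR adjusted p = 0.22).

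Hk2 and Slc2a6, which rose in the controls, were lower with the drug at T4. Of 20 other glycolytic genes 2 were tested there and Hk2 was the 1 called. Its difference was -1.23 (SE 0.43, edgeR adjusted p = 0.013) at high halofuginone, -3.05 (SE 0.70, edgeR adjusted p = 0.00022) with proline and -1.67 (SE 0.56, edgeR adjusted p = 0.014) at the middle doses. Slc2a6, the 1 of 9 transport genes tested, differed by -1.17 (SE 0.36, edgeR adjusted p = 0.0043), -0.94 (SE 0.35, edgeR adjusted p = 0.02) and -1.34 (SE 0.46, edgeR adjusted p = 0.016) in the same order. At T0 Hk2 was lower at the high doses (-2.33, SE 0.95, edgeR adjusted p = 0.044), on 6 counts, and at the middle doses (-2.62, SE 1.03, edgeR adjusted p = 0.047).

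The hypoxia list had 2 of 19 genes tested at T0 and T4 and 1 at T1. Vegfa, the angiogenic growth factor, was higher than in the controls with proline at the high doses of T0 (1.43, SE 0.32, edgeR adjusted p = 0.00014) and T1 (0.82, SE 0.34, edgeR adjusted p = 0.048), and without proline at the middle doses of T0 (1.40, SE 0.35, edgeR adjusted p = 0.0013) and T1 (1.34, SE 0.35, edgeR adjusted p = 0.0021). Without proline at the high doses its difference was 0.75 (SE 0.36, edgeR adjusted p = 0.091) at T0 and 0.24 (SE 0.40, edgeR adjusted p = 0.67) at T1. Bnip3l, a mitophagy receptor, fell at the high doses of T0 with proline, with a difference of -2.21 (SE 0.71, edgeR adjusted p = 0.0087), beside -2.09 (SE 0.89, edgeR adjusted p = 0.053) without it. The direct test of proline called neither gene at the high doses. Hif1a and P4ha1, the 2 tested at T4, did not pass in any of these comparisons. Of the pentose phosphate list, 1 of 7 was tested at T0, and that gene, Taldo1, fell at the middle doses, with a difference of -1.93 (SE 0.70, edgeR adjusted p = 0.03).

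Gapdh is widely used as a loading reference, so it is set beside other reference genes. At T4 with high halofuginone 6 of 12 were tested and 4 of these fell, where 35.5% of all genes tested were lower. The differences were -0.95 (SE 0.12, edgeR adjusted p = 1.5e-10) for the cytoskeletal actin Actb, -2.81 (SE 0.27, edgeR adjusted p = 9.1e-15) for B2m, -3.33 (SE 0.56, edgeR adjusted p = 9.5e-07) for Rpl13a and -1.05 (SE 0.41, edgeR adjusted p = 0.027) for Ppia, beside 0.06 (SE 0.22) for Gapdh. Actb ran from 7032 to 9126 CPM at the high doses and from 13340 to 17140 CPM in the controls, with no overlap.

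The members did not vary as 1 block. Over the 45 group means of log2 CPM the highest Pearson correlation of a pair was 0.61 (Pkm and Eno1), followed by 0.52 (Pkm and Tpi1), and the lowest was -0.58 (Pgam1 and Slc2a1). Slc2a1 had a negative value with 7 of the 9 enzymes. Of 1002 candidate genes, those most like the mean standardised profile of the members were Rpl41 (r = 0.68) and Rpl6 (r = 0.68), both of the ribosome, Sepp1 (r = 0.67), Timp2 (r = 0.67) and Celf2 (r = 0.67). The groups share library preparation and differ in depth and Rn45s share, and these values carry no test.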

How the data were processed

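The members and gene lists were chosen with earlier results of these data known. Per the labels' protocols, libraries were made by a modified SCRB-Seq method that enriches 3′ ends of transcripts. The authors deposited a raw count per gene symbol and library; the submitters' processing notes name BWA and mm10. How counting was done, its annotation and strand setting, and any use of molecular identifiers were not given in the sources used here. Differences were tested on the counts with edgeR 4.0.16 under R 4.3.3 (quasi-likelihood, TMM scaling, filterByExpr with a minimum count of 10), two-sided, with Benjamini-Hochberg adjustment over all genes of a comparison and a threshold of 0.05. The 36 controls were compared in 1 fit. Drug groups were compared in fits of 40 libraries per time, as means over the doses of a tier. In all, 23 comparisons were made. Each SE is |log2 fold change| over the root of F. CPM levels use the TMM factors of the control fit for controls and of each time's fit for treated libraries. The latter were shifted so that the geometric mean factor of a time's controls was the same in both fits. Alternatives were DESeq2 1.42.0, other scalings, no filter and left-out libraries, and the fits were checked on simulated counts. No 2 replicate columns were identical. Rn45s held 49.6% of all counts. Named genes were the 10 members, called genes of the lists (at most 4 per list) and the 5 genes most like the members' mean profile. The result of 1 reference gene is not reported here. Promoter windows are on GRCm38.p6, the assembly mm10 is built from.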

Additional observations from a re-analysis of the deposited data

Results flagged for a closer look

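The difference of Pkm between high halofuginone and control was not the same at T4 as at T0, by a test of that difference. The log2 fold change at T4 less that at T0 was -1.32 (SE 0.37, edgeR adjusted p = 0.0073). The T4 libraries behind it held 31 Pkm counts at the high doses and 480 in the controls, and those of T0 85 and 457. Over all 1468 genes tested the median of this T4 less T0 value was -0.46, with 238 called lower (16.2%) and 20 higher. The call of Pkm was lost without the filter on low counts (edgeR adjusted p = 0.1). Leaving out 1 library at a time gave -2.11 (replicate 1 at 10000 nM, T4) to -1.08 (replicate 2 at 625 nM, T4), with an adjusted p of at most 0.032 in 36 refits.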

How the results depend on the processing

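Values below are numbers of members called per comparison, with calls over all genes tested beside them for the alternative settings. The cause of each change was not tested. Without a filter on low counts, controls gave 0 at T1 against T0 and 2 at T4 against T0 (1 of them higher). Over all 12496 genes these were 263 higher and 55 lower, and 1011 and 1183. High halofuginone with proline gave 1 at T0 and 4 at T4, beside 163 and 430 of 12584, and 71 and 680 of 11796. The middle doses gave 0 at T0 and 0 at T1, beside 122 and 99 of 12584, and 30 and 185 of 12206. The T1 dose slope gave 1, beside 30 and 138 of 10114. The T4 less T0 difference gave 0, beside 12 and 139 of 12294. Median-of-ratios scaling, DESeq2 and the scaling over all 120 libraries, which was added after seeing the data, each gave 1 for T1 against T0 and 2 for T4 against T0, and the last 1 for T4 against T1. In that order they called 134, 136 and 137 of 708 genes higher and 27, 35 and 26 lower for T1 against T0. For T4 against T0 these were 288, 289 and 283 higher and 200, 201 and 212 lower. The last called 241 higher and 184 lower for T4 against T1. At the middle doses of T4 median-of-ratios scaling, DESeq2 and leaving out structural RNA symbols gave 3 and the scaling over all libraries 2. Over all genes these called 121, 121, 132 and 106 higher and 430, 407, 339 and 467 lower, in that order. The genes tested were 1402 without structural RNA symbols and 1315 in the others. DESeq2 gave 1 at high halofuginone at T0, 0 at the middle doses of T1 and 4 with proline at T4. Over all genes these were 198 higher and 220 lower of 1130, 88 and 208 of 1066, and 197 and 481 of 1315. Without the 10000 nM dose the counts were 1 at T0 without proline, 1 with it, and 1 at T1. Over all genes at T0 there were 158 higher and 213 lower of 1130 without proline, and 187 and 201 with it. At T1 without proline there were 95 and 164 of 1066. Without libraries under 30000 counts, high halofuginone with proline at T1 gave 2 and the T4 dose slope 1. Over all genes these were 133 higher and 251 lower of 1066, and 108 and 163 of 697. Fitting the doses of a tier as 1 group, also added after seeing the data, gave 2 with proline at T1 and 0 at the middle doses of T1. Over all 1066 genes these were 204 higher and 215 lower, and 135 and 140. The T4 difference of Hk1 at high halofuginone, 1.83, reversed to -0.20 without replicate 1 at 625 nM and was 2.19 without replicate 2.

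Leaving out 1 library at a time gave 1 to 2 members for T1 against T0 controls, 1 to 2 for T4 against T1, and 3 to 4 for T4 against T0. High halofuginone gave 0 to 2 at T0, 1 to 2 at T1 and 2 to 3 at T4, and with proline 1 to 3, 1 to 2 and 1 to 3. The middle doses gave 0 to 1, 0 to 1 and 0 to 2, the T4 dose slope 0 to 1, and the differences of T1 and T4 less T0 0 to 1 and 1 to 3. The call of Ldha for T1 against T0 was lost in 15 of 36 such refits, that for T4 against T0 in 4, and that of Pkm for T4 against T1 in 1 (control replicate 5 at T1, -0.28, edgeR adjusted p = 0.058).

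The labels do not say that replicate numbers pair libraries. Same-numbered controls of different times had a mean correlation of 0.09, with 9 of 36 pairs over 0.1, against -0.01 and 31 of 396 for other numbers, and same-numbered treated libraries of a time one of at most 0.01. With a replicate block, high halofuginone gave 1 member at T0, 1 at T1 and 1 at T4, all lower (Eno1 at T0, Pkm at T1 and T4), high halofuginone with proline 0 at each time, and the middle doses 0 at each time. Over all genes tested, the block called 98 higher and 137 lower of 1130 at T0 with high halofuginone. At T1 these were 61 and 147 of 1066, and at T4 115 and 309 of 1315. With proline they were 105 and 155, 72 and 142, and 103 and 290. At the middle doses they were 69 and 63, 68 and 86, and 77 and 184. Only 2 of the 12 controls share a number with the treated libraries, so the others add nothing to these block contrasts with control. Calls lost with the block cannot be told apart from this loss of controls. With 23 to 255 member counts per library, differences in Tpi1, Hk1, Eno1 and Slc2a1 rest on few counts.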
